A study of Oryctolagus cuniculus with 36 samples.

Results

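The genes described here are those of neutrophil granules and of the S100 proteins that neutrophils carry, followed in rabbit liver. They were chosen by symbol, as S100A8, S100A9, S100A12, MPO, ELANE, LTF, CSF3R, MMP8, MMP9 and ITGAM. Of these 10 symbols, 7 were found in the table of 23394 genes. MMP8 and ITGAM were found only under RefSeq gene identifiers (LOC100339790 and LOC100351865) and are described beside the 7 but not counted with them. ELANE was not analysed here.

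RNA was sequenced from liver in 36 libraries, 12 each of WT, FA and FK, and every group held 3 numbered sets of 4 libraries. The labels describe all 36 libraries, those of WT included, as a rabbit model of hereditary tyrosinemia type I, a deficiency of the tyrosine-breakdown enzyme FAH, and they do not spell out FA, FK, alleles, treatments or ages. The tissue was treated with trypsin before extraction. Nothing states that sets were separate animals, so the 4 libraries of a set were summed to 1 replicate and p-values measure the spread between sets, which may be technical.

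Neutrophils mature in the bone marrow and fill their granules in order. Azurophil granules, with MPO and the serine proteases, are made first in promyelocytes, then specific granules with LTF and MMP8, then gelatinase granules with MMP9. S100A8 and S100A9 form calprotectin, an abundant calcium-binding complex of the neutrophil cytoplasm that binds zinc and manganese, and CSF3R is the receptor for the growth factor that drives neutrophil production. The adult liver normally holds few neutrophils, while the fetal liver is a site of blood formation.

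Set totals ran from 53.2 to 78.6 M estimated counts, so 1 count in a set was worth 0.014 to 0.0169 CPM (counts per M counts of the set after TMM scaling, not corrected for gene length). FAH was at 217 to 271 CPM in the WT sets, 19.6 to 25.7 in FA and 11.8 to 16.3 in FK. FK set 3 stood apart from the other FK sets. Over the tested genes its Pearson r was 0.879 with FK set 1 and 0.847 with FK set 2, but 0.972 to 0.978 with the FA sets. The members' fitted changes and the list counts between FK and WT are therefore also given without it. FK set 3 was left out for its values in these same data, although its FAH, at 14.6 CPM, lay between those of FK sets 1 and 2. Its removal narrows the spread between sets, so the p-values and calls without it are descriptive. Values for the liver as a whole cannot separate more neutrophil-lineage cells from more RNA per cell.

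All 3 S100 genes were far higher in FK sets 1 and 2 than in any other set, and at the WT level in FK set 3. S100A9, the larger calprotectin chain, stood at 4.38, 7.31 and 9.12 CPM in WT sets 1, 2 and 3, at 7.29, 13.1 and 6.09 in FA, and at 577, 849 and 8.26 in FK. FK sets 1 and 2 were 83.2 and 122 times the WT mean, while FK set 3 was 1.19 times that mean and lay inside the WT range. Between FK and WT the fitted log2 change of S100A9 was 6.11 (SE 1.34), with an adjusted p of 0.0442 by edgeR's quasi-likelihood test.

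S100A8, its partner chain, was at 2.63, 4.62 and 5.13 CPM in WT, at 3.72, 8.45 and 3.86 in FA and at 281, 395 and 4.66 in FK. Its log2 change between FK and WT was 5.78 (SE 1.29, edgeR adjusted p = 0.0459). S100A12, a related neutrophil protein that signals to other cells, was at 1.55, 3.06 and 4.07 CPM in WT, at 2.57, 6.79 and 2.71 in FA and at 180, 220 and 3.77 in FK. It rose by 5.54 (SE 1.25, edgeR adjusted p = 0.0471). As for S100A9, FK set 3 overlapped WT and FA for both genes.

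These 3 were the members called between FK and WT, 3 of 7, all higher. Of all 14939 genes tested, 4.77% were called in either direction, 3.04% higher and 1.73% lower. An unadjusted p under 0.05 was reached by 6 of 7 members and by 26.9% of all tested genes. The median log2 change was 5.54 over the 7 members and 0.05 over all tested genes. Without FK set 3, all 7 members were called higher, where 18.7% of 15453 tested genes were and 16.2% were called lower. The log2 changes were then 6.34, 6.67 and 6.10 for S100A8, S100A9 and S100A12 (edgeR adjusted p = 4.87e-05, 4.17e-05 and 0.000101). With FK set 3 as the only FK set, a fit that assumes it to vary like the WT and FA sets, none was called higher, where 0.34% of 15607 were, and the log2 changes were 0.14, 0.22 and 0.35 for S100A8, S100A9 and S100A12. The calls of the S100 genes were also lost on leaving out any 1 of the other 8 sets (adjusted p from 0.0706 to 0.171), and no member was then called. Their log2 changes then stayed between 5.12 and 5.94 for S100A8, 5.40 and 6.33 for S100A9 and 5 and 5.84 for S100A12, and 0.145% to 0.996% of all tested genes were called in either direction, against 4.77% with all sets.

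**Figure D1:**
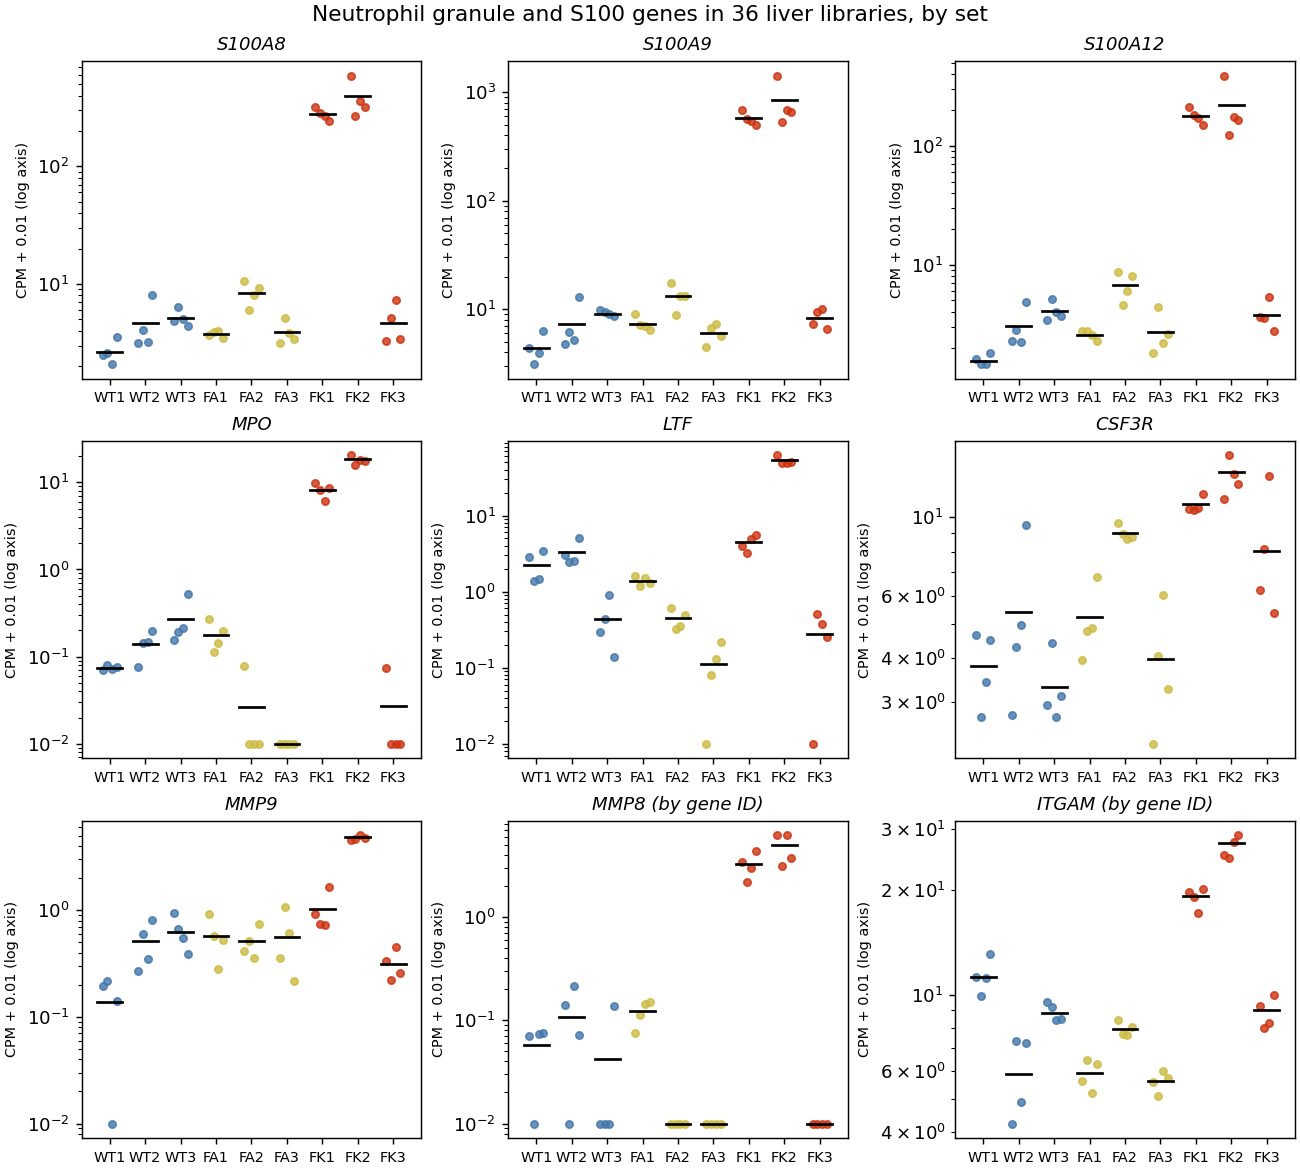
CPM of each member on a log axis (0.01 CPM added so that libraries at 0 can be drawn), with 1 point per library and a bar at the value of the summed set, for the 9 sets of WT, FA and FK. The S100 genes, MPO and MMP8 of FK sets 1 and 2 lie above every other library, as does ITGAM, whereas CSF3R, LTF and MMP9 overlap.

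The single libraries gave the same picture. S100A9 was at 495 to 680 CPM in the 4 libraries of FK set 1 and at 534 to 1426 in those of set 2, against 3.11 to 17.5 in the other 28. Library 1 of FK set 2 stood apart in the S100 genes. It held 592 CPM of S100A8, 1426 of S100A9 and 392 of S100A12, while the other 3 libraries of that set held 266 to 356, 534 to 681 and 124 to 174. In the same library MPO (20.4 CPM against 15.6 to 18.1), LTF (61.9 against 48.4 to 50.8) and MMP9 (4.54 against 4.68 to 5.06) differed by much less. With that library left out, the 3 S100 genes were still the members called.

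The balance among the S100 genes differed less between sets than their level. Counts of S100A9 per count of S100A8 were 1.66, 1.58 and 1.78 in WT, 1.96, 1.55 and 1.58 in FA and 2.05, 2.15 and 1.77 in FK. S100A12 made up 18.1%, 20.4% and 22.2% of the summed counts of the 3 genes in WT, 18.9%, 23.9% and 21.4% in FA and 17.4%, 15.0% and 22.6% in FK. FK sets 1 and 2 thus had the highest S100A9 ratios and the lowest S100A12 shares of the 9 sets. Neither differed between FK and WT by an exact two-sided permutation test over 3 against 3 sets (p = 0.2 and p = 0.5, both 0.7 when adjusted over 14 ratio comparisons), where the smallest p possible is 0.1. Because the genes belong to 1 family, estimated counts could have moved between them.

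Among the granule enzymes, MPO, which makes hypochlorous acid in azurophil granules, was nearly absent outside FK sets 1 and 2. It had 4, 8 and 16 counts in WT (0.0639, 0.129 and 0.259 CPM), 12, 1 and 0 in FA, and 516, 1219 and 1 in FK (8.24, 18.5 and 0.0169 CPM). The count of 0 in FA set 3 allows up to 0.0502 CPM, taking 3 counts as the limit. FK sets 1 and 2 were 54.7 and 123 times the WT mean, and FK set 3 was below every WT set. The log2 change between FK and WT was 5.87 (SE 1.79), as large as those of the S100 genes, but it was not called (edgeR adjusted p = 0.0822). Without FK set 3 it was 6.44 (adjusted p = 0.00071).

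LTF, the iron-binding lactoferrin of specific granules, split FK sets 1 and 2 more than any other member. It was at 2.24, 3.27 and 0.421 CPM in WT, at 1.36, 0.437 and 0.1 in FA and at 4.45, 54.2 and 0.27 in FK. FK set 2 was 27.4 times the WT mean and FK set 1 was 2.26 times it. The 4 libraries of FK set 1, at 3.20 to 5.62 CPM, overlapped the other 28, which reached 5.07. The log2 change of 3.31 (SE 1.59) was not called (edgeR adjusted p = 0.217), without FK set 3 it was 3.87 (adjusted p = 0.0301), and without FK set 2 it was 0.26 (adjusted p = 0.926).

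MMP8, the neutrophil collagenase of the same granules, had 3, 6 and 2 counts in WT, 8, 0 and 0 in FA and 206, 328 and 0 in FK. In CPM, FK sets 1 and 2 were at 3.29 and 4.97 and the next highest was FA set 1, at 0.112. The count of 0 in FK set 3 allows up to 0.0507 CPM. MMP8 failed the filter on low counts and so was not tested with the other genes. With no filter its log2 change between FK and WT was 5.49 (edgeR adjusted p = 0.104), and without FK set 3 it was 6.06. MMP8 passed the filter without FK set 3 only through FK sets 1 and 2, where it was high, so that fit is no test of it.

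MMP9, the gelatinase of the last granules to form, was at 0.128, 0.499 and 0.615 CPM in WT, at 0.561, 0.502 and 0.552 in FA and at 1.02, 4.89 and 0.304 in FK. Like LTF it was higher in FK set 2 (11.8 times the WT mean) than in FK set 1 (2.47 times). The log2 change of 2.32 (SE 0.94) was not called (edgeR adjusted p = 0.156), without FK set 3 it was 2.82 (adjusted p = 0.016), and without FK set 2 it was 0.68 (adjusted p = 0.622).

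The ratio of MPO to the specific-granule genes also separated FK sets 1 and 2. Counts of MPO per count of LTF plus MMP8 were 1.06 in FK set 1 and 0.312 in FK set 2. In WT sets 1, 2 and 3 the ratio was 0.028, 0.0383 and 0.571, the last from 16 counts of MPO. FK and WT overlapped (exact permutation p = 0.4, adjusted p = 0.7).

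Differences were smaller for the surface receptors. CSF3R was at 3.78, 5.38 and 3.29 CPM in WT, at 5.19, 8.99 and 3.96 in FA and at 10.9, 13.4 and 8.04 in FK. All 3 FK sets were above all 3 WT sets, and CSF3R was the only one of the 7 members of which this held, as it did for 13.9% of all tested genes in the direction of higher FK. FA set 2, at 8.99, was above FK set 3. The log2 change between FK and WT was 1.38 (SE 0.36, edgeR adjusted p = 0.0572), so it was not called, and without FK set 3 it was 1.53 (adjusted p = 0.0107).

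Relative to S100A9, CSF3R was lowest in FK sets 1 and 2, and FK set 3 had the highest ratio of the 9 sets. Counts of CSF3R per count of S100A9 were 0.0189 and 0.0158 in FK sets 1 and 2 and 0.973 in FK set 3. The WT sets had 0.865, 0.736 and 0.361 and the FA sets 0.712, 0.684 and 0.651. Within FK set 3 its 4 libraries ran from 5.33 to 13.1 CPM of CSF3R, a wide range for libraries of 1 set.

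ITGAM, the alpha chain of the integrin Mac-1 that neutrophils share with macrophages and natural killer cells, was at 11.2, 5.88 and 8.83 CPM in WT, at 5.93, 7.94 and 5.62 in FA and at 19.2, 27.4 and 8.99 in FK. FK sets 1 and 2 were above all other sets, and FK set 3 lay within the WT range. The log2 change of 1.10 (SE 0.40) was not called (edgeR adjusted p = 0.122), and without FK set 3 it was 1.42 (adjusted p = 0.00612).

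**Figure D2:**
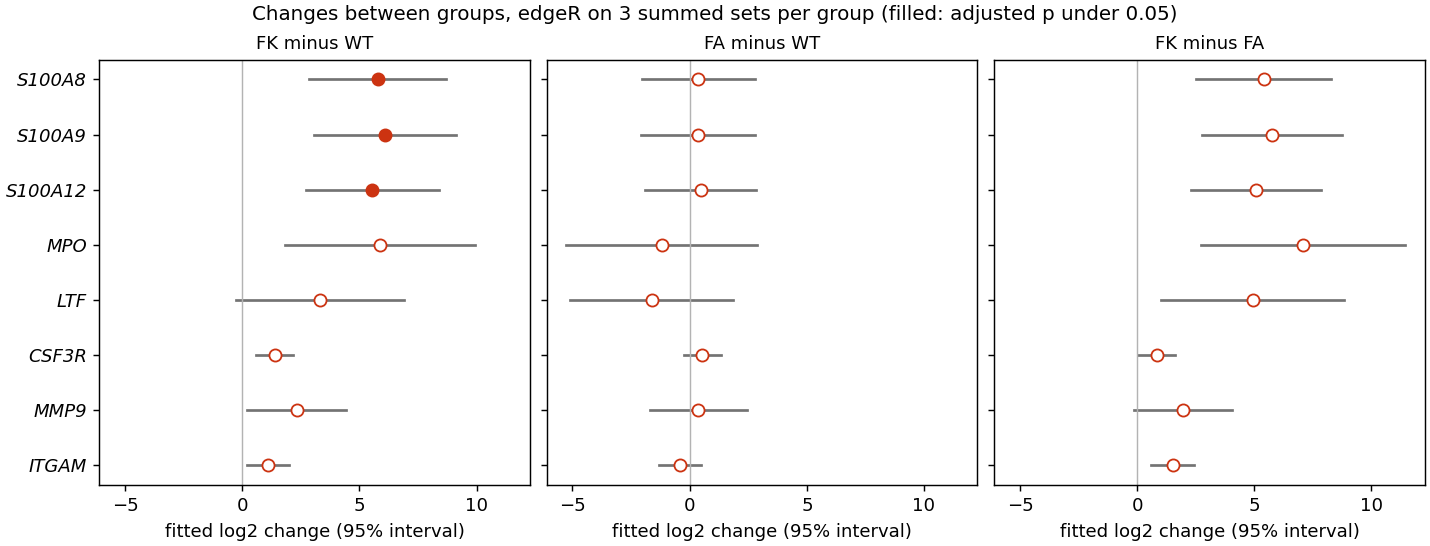
Fitted log2 changes of 8 tested genes, the 7 members and ITGAM, with 95% intervals, in each pair of groups. Filled points mark an adjusted p under 0.05 by edgeR's quasi-likelihood test, which only S100A8, S100A9 and S100A12 reach, between FK and WT.

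FA did not differ detectably from WT in any member. By edgeR 0 of 7 were called, where 0.167% of all tested genes were (0.0937% higher and 0.0736% lower), and 0 of 7 had an unadjusted p under 0.05, where 10.2% did. DESeq2 and limma-voom called 0 as well, where they called 2.18% and 3.44% of all tested genes, and limma-voom did not test MPO. The log2 changes were 0.37 for S100A8, 0.35 for S100A9, 0.48 for S100A12, 0.54 for CSF3R and 0.38 for MMP9, and -1.20 for MPO and -1.63 for LTF. The 95% interval of S100A9, from -2.10 to 2.80, was wide enough to hold a several-fold change either way. FA set 2 had the highest S100A8, S100A9, S100A12 and CSF3R of the 7 sets other than FK sets 1 and 2, beside 1 count of MPO and 0 of MMP8.

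Between FK and FA the S100 genes differed by 5.41 (S100A8), 5.76 (S100A9) and 5.07 (S100A12) on the log2 scale, each with an edgeR adjusted p of 0.115. None of 7 members was called, nor was any of the tested genes (0%). At an unadjusted p under 0.05 stood 6 of 7 members and 21.9% of all genes. No member had its 3 FK sets all above the FA sets, as 8.98% of all tested genes did. ITGAM, not counted among the 7, did (log2 change 1.51, SE 0.40, edgeR adjusted p = 0.115). DESeq2 called 5 members, and limma-voom on the 36 libraries, which did not test MPO, called 3. By edgeR without FK set 3, 6 were called, leaving out CSF3R. Of all genes tested, DESeq2, limma-voom and edgeR without FK set 3 called 11.1%, 17% and 34.5% in either direction. Both comparisons use the same FK sets, so they are not independent of each other.

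The other neutrophil genes were taken from lists by granule. In the counts of each list, rose and fell stand for called higher and called lower, not for direction alone. Of 9 further azurophil genes 4 were in the table and tested, and 1 was called higher. It was BPI, a protein that kills Gram-negative bacteria, at 1.71, 0.853 and 2.62 CPM in WT, 1.63, 2.46 and 0.485 in FA and 186, 295 and 2.28 in FK (log2 change 6.54, SE 1.49, edgeR adjusted p = 0.0475). FK sets 1 and 2 were 107 and 170 times the WT mean, and FK set 3 lay within the WT range. Without FK set 3 BPI was still the only azurophil gene of the list called. A row matched to LYZ, lysozyme, by its identifier (LOC100341160) was at 0.435 CPM in WT set 2 and 0.0909 in FK set 2, but at 26.2 to 264 in the other 7 sets. It was chosen after its values were seen, and its counts may be shared with other lysozyme copies.

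Of 10 tested specific-granule genes 3 rose and none fell, and without FK set 3, 7 rose. CAMP, the precursor of the antimicrobial cathelicidin peptide, was at 1.34, 3.08 and 1.17 CPM in WT and at 128, 500 and 1.86 in FK (log2 change 6.82, SE 1.60, edgeR adjusted p = 0.0491). CHI3L1, a chitinase-like protein, was at 0.735, 1.18 and 1.23 in WT and at 22.4, 47.6 and 1.60 in FK (4.51, adjusted p = 0.0471). PTX3, a soluble pattern-recognition protein, was at 0.144, 0.274 and 0.178 in WT and at 11.4, 7.79 and 0.287 in FK (5.02, adjusted p = 0.0442). CAMP was higher in FK set 2 than in FK set 1, as LTF was, while PTX3 was higher in FK set 1. The median log2 change of the list was 2.93. Several of its genes, such as HP and ORM1, are mainly products of hepatocytes in the liver.

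Of 6 tested gelatinase and secretory granule genes 1 rose, and without FK set 3, 3 did. The 1 was PADI4, the enzyme that converts arginine to citrulline in histones, at 0.415, 0.306 and 0.292 CPM in WT and at 5.59, 11 and 0.591 in FK (log2 change 4.08, SE 0.94, edgeR adjusted p = 0.0485). Of 10 tested neutrophil receptors 1 was called higher, at a median log2 change of 1.44 over the list, and without FK set 3 all 10 were. CXCR1, a receptor for CXCL8, was at 1.80, 2.79 and 1.73 CPM in WT and at 7.74, 7.98 and 3.72 in FK (log2 change 1.62, SE 0.37, edgeR adjusted p = 0.0473). As with CSF3R, all 3 FK sets of CXCR1 were above the WT sets.

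None of the 5 tested NADPH oxidase genes was called, and without FK set 3 all 5 rose. CYBB, the catalytic chain of the oxidase, was at 13.3, 13.3 and 17.2 CPM in WT, at 9.88, 7.56 and 7.38 in FA and at 28.1, 25 and 13.7 in FK (log2 change 0.61, edgeR adjusted p = 0.195). None of these lists held a call between FA and WT or between FK and FA. Of all genes tested without FK set 3, 18.7% were called higher and 16.2% lower.

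**Figure D3:**
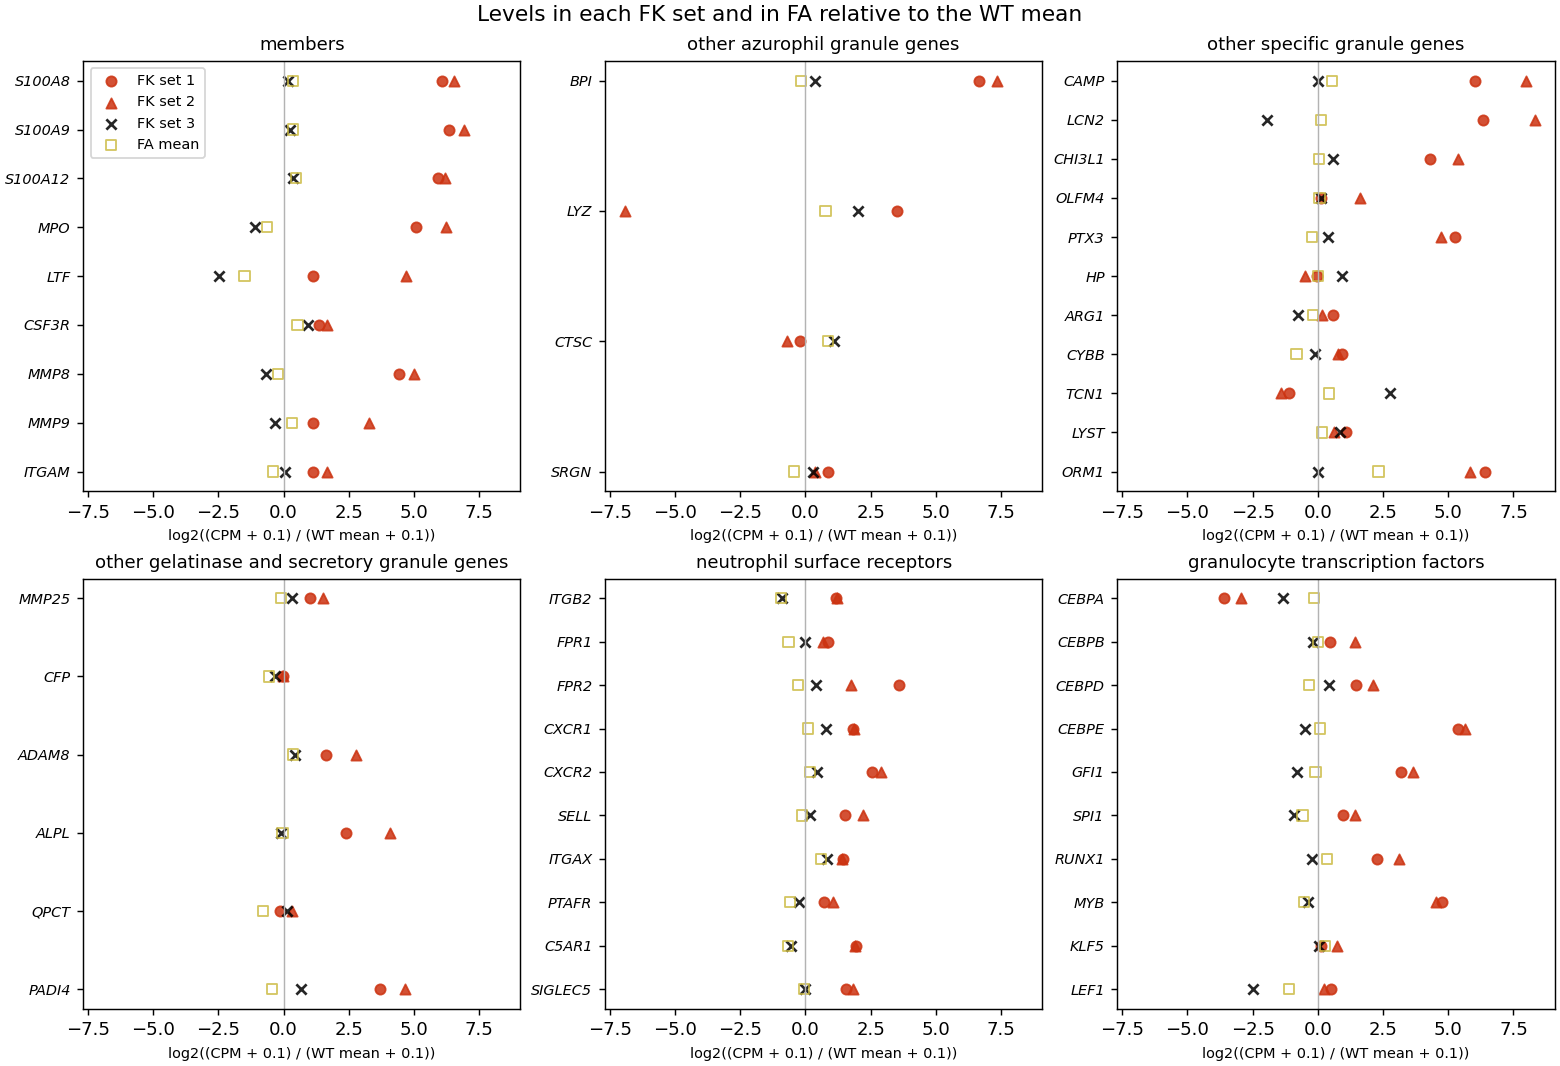
Level of each gene in FK sets 1, 2 and 3 and in the mean of FA, relative to the WT mean, as a log2 ratio with 0.1 CPM added to both. In FK sets 1 and 2 the S100 genes, MPO, MMP8, BPI, CAMP and CEBPE lie far to the right of FK set 3 and FA, while the receptors lie closer to WT.

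The other genes of the S100 family gave no call. Of 8 tested none was called between FK and WT, and their median log2 change was -0.37. Without FK set 3, 2 rose and 3 fell. S100A10, the annexin A2 partner, was at 17.8, 17.7 and 20.7 CPM in WT and at 6.82, 5.32 and 16 in FK (log2 change -0.998, edgeR adjusted p = 0.15), and without FK set 3 the log2 change was -1.64 (adjusted p = 0.0017). The RefSeq gene order of assembly mOryCun1.1 was read from S100A1 to S100A9, and genes beyond these were not examined. S100A13, S100A14, S100A5 and S100A6 lie between S100A1 and S100A8. LOC103350047 and LOC100349767, between S100A6 and S100A8, had 0 counts. Of these neighbours S100A6 was at 5.12 CPM in the mean of WT and at 11.2, 8.91 and 4.32 in FK. S100A1, at 3.22 in WT, was at 1.21, 1.00 and 1.87 in FK, and S100A13, at 4.79 in WT, was at 3.46, 2.62 and 2.67. The neighbours counted and named here thus did not share the level of S100A8 and S100A9, and they were chosen for their position only. The nearest, protein-coding LOC100008703 and the lncRNA LOC138850309 between S100A8 and S100A9, were not among the counted genes, so their level is unknown. The RefSeq table holds no entry under the symbol S100A12.

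Of 6 tested receptors and partners of S100A8 and S100A9 none was called, and their median change was 0.35. CD36, a fatty acid and scavenger receptor, was at 292, 439 and 423 CPM in WT and at 537, 297 and 657 in FK (log2 change 0.37, edgeR adjusted p = 0.525). Of 5 tested cytokines and chemokines for neutrophils none was called, their median log2 change was 1.95, and 3 rose without FK set 3. The log2 changes of CCL2, CXCL8, CXCR4 and IL1B were 3.84, 2.93, 1.95 and 0.08. That of CCL2 rested on FK set 1, with 12.4, 0.455 and 0.338 CPM in FK sets 1, 2 and 3 against 0.271 to 0.373 in WT. CXCL8 (3.56 and 2.35 CPM) and CXCR4 (12.9 and 12.3) were above the WT sets in both FK sets 1 and 2. CXCL12, which holds neutrophils in the marrow, was at 524, 564 and 274 CPM in WT and at 274, 407 and 402 in FK (-0.33, adjusted p = 0.72). Of 4 tested inhibitors of granule proteases none was called, with 1 rising without FK set 3. SERPINA3, an inhibitor made by hepatocytes, was at 901, 588 and 689 CPM in WT and at 1547, 414 and 975 in FK (0.43, adjusted p = 0.678).

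Of 9 tested granulocyte transcription factors none was called, and without FK set 3, 5 rose and 1 fell. CEBPA, needed for granulocyte formation and also abundant in hepatocytes, was at 263, 241 and 112 CPM in WT, at 210, 199 and 152 in FA and at 16.8, 26.4 and 81.8 in FK (log2 change -2.30, SE 0.59, edgeR adjusted p = 0.0555). It was the 1 factor that fell without FK set 3 (-3.27, adjusted p = 0.00061). CEBPE, required for specific granules, was chosen after its values were seen. It had 12 counts in all of WT, failed the filter, and was 105, 127 and 0.262 times the WT mean in FK sets 1, 2 and 3. Without FK set 3 its log2 change was 6.8. CEBPE passed the filter there only through FK sets 1 and 2, where it was high, so that fit is no test of it.

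The lists of progenitor, erythroid, megakaryocyte, and eosinophil, basophil and mast cell markers were also high in FK sets 1 and 2, though not in every gene. The 7 progenitor markers, all detected in every set, summed to 7.74 to 8.29 CPM in WT, 6.04 to 7.36 in FA and 62.9, 95.3 and 5.07 in FK sets 1, 2 and 3. None was called, and without FK set 3, 6 rose. The exception was PROM1, at 0.128 and 0.242 CPM in FK sets 1 and 2 against 0.351 to 0.81 in WT. SPN, the leukocyte surface protein CD43, was at 3.61, 3.28 and 3.50 CPM in WT and at 25.8, 57.3 and 1.59 in FK (log2 change 3.03, edgeR adjusted p = 0.0826).

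The 16 erythroid markers summed to 46.5 to 132 CPM in WT, 118 to 270.0 in FA and 1020, 2686 and 159 in FK. TFRC, the transferrin receptor, made up 131, 242 and 109 CPM of the FA sums and 143 of FK set 3, and the list's median log2 level relative to the WT mean was -0.48, -0.44 and -0.69 in FA and -0.63 in FK set 3, against -0.45, -0.32 and 0.65 in the WT sets. With all FK sets 1 of 16 was called higher, at a median log2 change of 5.58 over the list. Without FK set 3 all 16 were. TFRC was the 1 (log2 change 3.19, edgeR adjusted p = 0.015), at 143 CPM in FK set 3 against 19 to 28.1 in WT. Of 5 tested megakaryocyte markers 1 rose, GP9, a platelet receptor chain (4.89, adjusted p = 0.0425), and without FK set 3 all 5 did. Their sum over 7 genes was 45.5 to 78.2 CPM in WT, 46.3 to 85.3 in FA and 205, 221 and 70.3 in FK.

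The eosinophil, basophil and mast cell markers were nearly absent outside FK sets 1 and 2. Summed over 8 genes they were at 1.42 to 2.11 CPM in WT, 0.713 to 2.24 in FA and 84.9, 32.7 and 0.895 in FK, and 2 or 3 of the 8 were at 0 in each WT set. None of 4 tested genes was called, and all 4 rose without FK set 3. PRG2, the eosinophil major basic protein, was at 0.016 to 0.0483 CPM in WT and at 35.3, 10.8 and 0 in FK (log2 change 8.81, edgeR adjusted p = 0.0633). Unlike MPO and LTF, these genes were higher in FK set 1 than in FK set 2, except CPA3, which was at 0 in every set. IL5RA was near its WT level, at 0.0798 and 0.0455 CPM in FK sets 1 and 2 against 0 to 0.0639 in WT.

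Of 14 tested cell division genes 4 rose, and without FK set 3, 13 did. Their sum was 52.0 to 98.0 CPM in WT, 49.5 to 62.5 in FA and 393, 889 and 52.7 in FK. TOP2A, the topoisomerase of dividing cells, was at 1.77, 3.59 and 4.02 CPM in WT and at 68.7, 114 and 5 in FK (log2 change 4.32, edgeR adjusted p = 0.044). PLK1, a mitotic kinase, rose by 4.28 (adjusted p = 0.0482). TYMS, which makes thymidylate, rose by 2.80 (adjusted p = 0.015), with 7.28 CPM in FK set 3 against 1.37 to 2.33 in WT.

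Markers of mature lymphocytes gave 1 call in each list, both lower in FK. Of 13 tested T and NK cell genes 1 fell, CD5 (log2 change -2.42, edgeR adjusted p = 0.044), and without FK set 3, 10 fell and 1 rose, where 16.2% of all tested genes were called lower. Of 9 tested B and plasma cell genes 1 fell, MS4A1, which encodes CD20 (-2.56, adjusted p = 0.0236), and without FK set 3, 4 fell. The T and NK sum was 11.8 to 14.1 CPM in WT, 7.13 to 12.5 in FA and 7.87, 10.9 and 4.97 in FK. NKG7 made up 3.19 and 5.67 CPM of the sums of FK sets 1 and 2, and CD8A 3.80 and 2.14. The list's median log2 level relative to the WT mean was -1.26, -0.75 and -0.61 in FK. The B and plasma cell sum was 108 to 123 CPM in WT, 57.0 to 70.1 in FA and 15.6, 16.6 and 75.1 in FK. BLNK and JCHAIN made up 45.4 and 27.6 CPM of the sum of FK set 3. The median log2 level of this list relative to the WT mean was -0.95, -0.41 and -0.81 in FK.

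Monocyte and macrophage markers, which share ITGAM and CYBB with neutrophils, summed over 15 genes to 810.1 to 1017 CPM in WT, 462 to 588 in FA and 1114, 737 and 714 in FK. Of 14 tested 1 rose, and without FK set 3, 2 rose and 1 fell. The 1 was CD163, the haemoglobin scavenger receptor, at 0.192, 0.322 and 0.13 CPM in WT and at 31, 27.9 and 1.3 in FK (log2 change 6.54, edgeR adjusted p = 0.0355). Of 11 tested hepatocyte genes 1 rose, the apolipoprotein gene APOA1 (5.59, adjusted p = 0.0404), and without FK set 3, 6 rose and 2 fell. The hepatocyte genes summed to 210445 to 273966 CPM in WT, 229422 to 283632 in FA and 284029, 179428 and 259621 in FK. ALB made up 145852, 84988 and 180761 CPM of the FK sums, and 158987 to 218553 of those of WT. The list's median log2 level relative to the WT mean was 1.31, 0.94 and 0.43 in FK, against -0.11, -0.08 and 0.13 in the WT sets. The part that any of these cell types played in the values of S100A8, S100A9, S100A12, MPO and LTF was not tested.

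**Figure D4:**
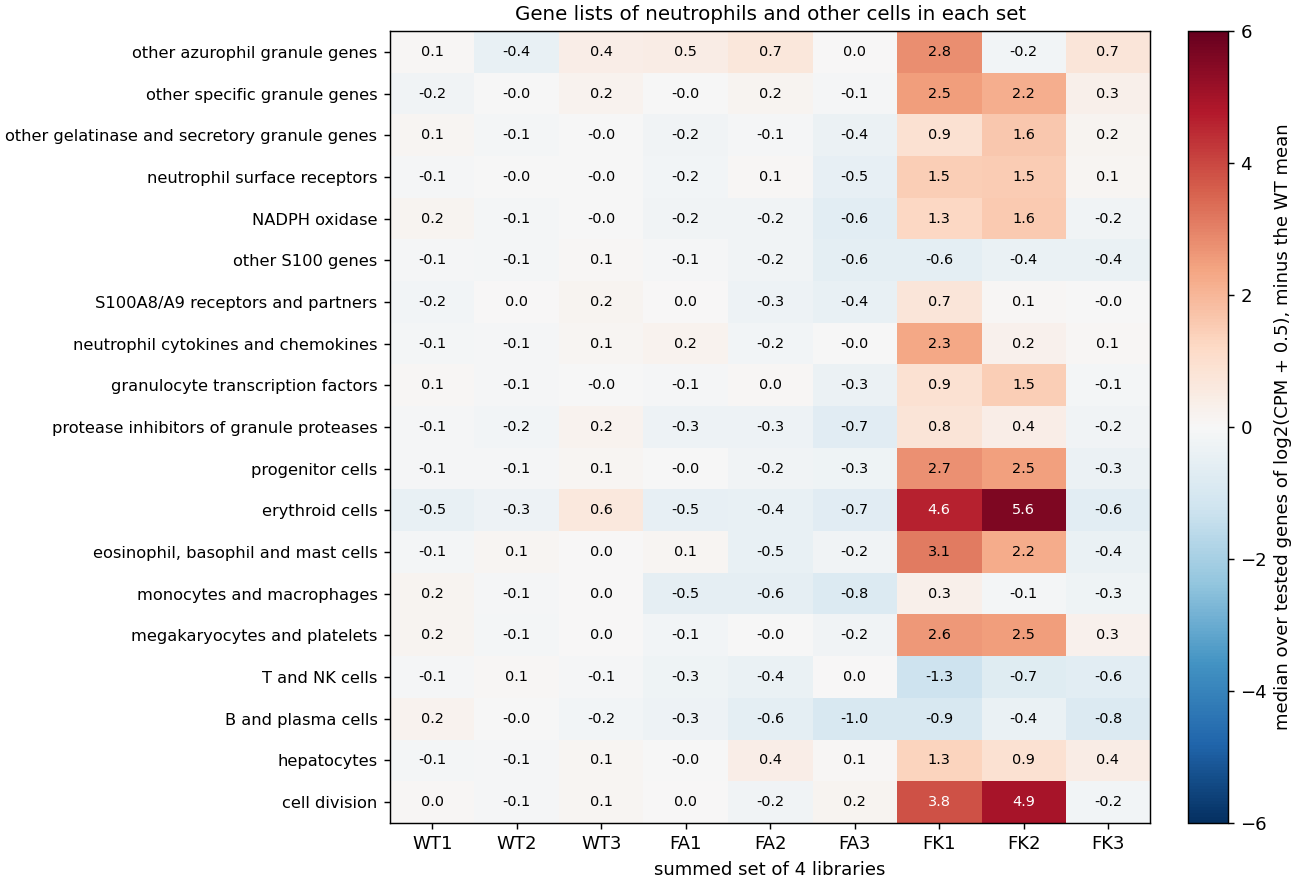
Median over the tested genes of each list of log2(CPM + 0.5) in a set minus the WT mean, for 19 lists and 9 sets. FK sets 1 and 2 are high for specific granule, receptor, progenitor, erythroid, megakaryocyte and cell division genes. The other azurophil genes have a median of 2.79 in FK set 1 and -0.16 in FK set 2. Of these, BPI was high in both (186 and 295 CPM), while the LYZ row was at 264 and 0.0909 CPM. T and NK cell genes are at -1.26, -0.75 and -0.61 in FK and at -0.28, -0.39 and 0.04 in FA. B and plasma cell genes are at -0.95, -0.41 and -0.81 in FK and at -0.28, -0.59 and -0.95 in FA. FK set 3 is near WT in most of the other lists.

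The genes most like S100A9 over the 9 sets, by Pearson r of log2(CPM + 0.5) among 12186 genes, were LOC100350165 (r = 0.9963), STRADB (0.9963), IGF2BP3 (0.9929), MTFR2 (0.9924) and PRR11 (0.992). STRADB was at 12.7 CPM in the mean of WT and at 74.8, 95.4 and 13.2 in FK sets 1, 2 and 3. IGF2BP3, an RNA-binding protein of fetal tissue, was at 0.451 in WT and at 10.9, 17.2 and 0.625 in FK. For MPO, used because ELANE was not analysed, the most alike were RHAG (0.9979) and TRIM10 (0.9979), then SH3TC2 (0.9978), ANK1 (0.9977) and SGO1 (0.9975). RHAG and ANK1 encode red cell membrane proteins, and SGO1 protects chromosome cohesion. RHAG was at 0.07 CPM in WT and at 15.3, 45.1 and 0 in FK. All these values rest on FK sets 1 and 2 standing apart from the other 7, the sets share their libraries across genes, and 450 genes had r of at least 0.95 with S100A9 and 511 with MPO.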

How the data were processed

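The authors deposited 1 table of estimated counts per gene for 36 libraries, as whole numbers. Per the submitters' processing notes Salmon 0.14.1 was used. Which step it served is not given in the sources used here, nor are the build, the rounding or the use of strand. Per the labels' protocols RNA was extracted with TRIzol from trypsin-treated livers and sequencing libraries came from a TruSeq kit. Library totals ran from 11.7 to 22.5 M counts.

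The 4 libraries of a set were summed. Expected counts of the 9 sets were tested with edgeR 4.0.16 in R 4.3.3 by its quasi-likelihood test, with TMM scaling, filterByExpr by group and Benjamini-Hochberg adjustment over 14939 genes, and a call is an adjusted p under 0.05. The residual degrees of freedom were 6 and the prior ones 2.89. Log2 changes are edgeR's. CPM levels use the same scaling. Ratios of counts were compared by exact permutation over sets. On simulated data for FK against WT with 14939 genes, of which 200 were changed, changes of 2-fold were recovered in 0%, of 4-fold in 50%, of 8-fold in 68% and of 16-fold in 86%, and 3 unchanged genes were called. The simulation drew each gene separately, with no set that deviated as a whole as FK set 3 did. Its shares may therefore not hold for these data.

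Alternatives were RLE scaling, 2 other filters, the set number as a block, only the groups compared, library 1 of each set alone, DESeq2 1.42.0, limma-voom (limma 3.58.1) on single libraries with a random effect of set, and leaving out each set. Leaving out FK sets 1 and 2, and library 1 of FK set 2, was chosen after seeing the data.

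The members and all 19 other lists were chosen with earlier results of these data known. Of 220 symbols 183 matched a row, by symbol or by RefSeq gene identifier (assembly mOryCun1.1, used for names and gene order only). Genes named from a list are up to 3 called between FK and WT with the smallest p, or, where none was called in any comparison, the gene with the highest mean CPM. Likeness to S100A9 and ELANE was planned, and MPO replaced ELANE. Figures were drawn with matplotlib 3.10.9.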

Additional observations from a re-analysis of the deposited data

Results flagged for a closer look

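Within sets of 4 libraries, 8 of 77 combinations of gene and set held a library far from the others by Dixon's ratio, where chance gives about 5%. S100A9 was at 1426 CPM in library 1 of FK set 2, with the other 3 libraries at 534 to 681, and at 13.05 in library 4 of WT set 2, with the others at 4.75 to 6.13. In that WT library S100A8 (8.10 CPM), S100A12 (4.88), LTF (5.07) and CSF3R (9.52) were also the highest of their set. CSF3R was at 11.7 CPM in library 4 of FK set 1, with the others at 10.5 to 10.6.

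The other cases rest on few counts. MPO was at 0.508 CPM in library 4 of WT set 3, with the others at 0.143 to 0.203. MPO was also at 0.0675 in library 1 of FA set 2 and at 0.0641 in library 1 of FK set 3, with the other libraries of both sets at 0. MMP8 was at 0 in library 2 of WT set 1, with the others at 0.0611 to 0.066, and at 0.127 in library 4 of WT set 3, with the others at 0.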

How the results depend on the processing

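Between FK and WT, 3 of 7 members were called by edgeR, and also with RLE scaling, without a filter and without library 1 of FK set 2. The same 3 were called of 5 tested with at least 1 CPM in 3 sets, where MPO and MMP9 were not tested. By limma-voom they were called of 6 tested, without MPO. With the set number as a replicate block, with only the 2 groups and with library 1 of each set alone, 0 were called. The log2 change of S100A9 with these settings, in that order, was 5.60, 6.08 and 6.87 against 6.11. Library 1 alone left MPO untested. With the block 47 of all tested genes were called instead of 712, with 2 groups 43, with library 1 alone 189, by DESeq2 2720 and by limma-voom 2448. DESeq2 called 5 members, adding MPO and CSF3R. Leaving out 1 set gave 0 to 7 members, with 7 only without FK set 3 and 0 without any other. With FK set 3 alone, assumed to vary like the WT and FA sets, 0 were called, and MPO (-3.04), LTF (-2.90) and MMP9 (-0.47) reversed.

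Between FK and FA, 0 of 7 were called, against 5 by DESeq2 and 3 by limma-voom, which did not test MPO. Leaving out 1 set gave 0 to 6. With FK set 3 alone S100A8 (-0.23), S100A9 (-0.13), S100A12 (-0.13), MPO (-1.84), LTF (-1.27) and MMP9 (-0.86) reversed. Between FA and WT 0 members were called under any alternative run. On leaving out 1 set the FA change of S100A8 ran from -0.12 to 0.58, of S100A9 from -0.051 to 0.59, of S100A12 from -0.13 to 0.79 and of MMP9 from -0.044 to 0.76. The S100 genes reversed without FA set 2 and MMP9 without WT set 1. The log2 ratio of S100A9 to S100A8 between FA and WT ran from -0.095 to 0.074 on leaving out 1 set, reversing to -0.025 without WT set 2 and to -0.095 without FA set 1. The log2 share of S100A12 between FA and WT ran from -0.00347 to 0.17, and was -0.00661 with library 1 alone.

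Same-numbered sets deviated together at r from -0.125 to 0.128, so the numbers did not pair them. The cause of these changes was not tested. The ratio of MPO to LTF plus MMP8 could not be computed with library 1 alone or with FA, where counts were 0. Depth limits MPO and MMP8, with 28 and 11 counts in all of WT.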
